A study of Mus musculus with 2 samples.

Results

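The Mir23, Mir27 and Mir24 genes of the mouse lie in a pair of paralogous clusters, Mir23b, Mir27b and Mir24-1 on chromosome 13 and Mir23a, Mir27a and Mir24-2 on chromosome 8. These 6 genes were taken by their GENCODE M21 names from the 2202 miRNA genes of the deposited count tables. They were measured by microRNA sequencing of small RNA in hippocampus, labelled layer of hippocampus, from male B6CASTF1/J mice at 25 days of age. This strain is the first-generation hybrid of C57BL/6J and CAST/EiJ. There were 2 libraries of 1 group, named biological replicates 1 and 2, with a biosample each but a shared donor entry. No treatment, mutation or second tissue was part of the design, so the levels of the members, the ratio between the clusters and the difference between the libraries are what can be compared. The spread between the libraries may be partly technical, and in this bulk tissue fewer cells of a type and less RNA per cell cannot be told apart.

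A miRNA is cut from 1 arm of a hairpin in a longer primary transcript and guides Argonaute proteins to messenger RNAs that pair with its seed, bases 2 to 8. Genes of 1 cluster are read from a common primary transcript, and the 2 clusters arose from a duplication, so that each miRNA has a close relative on the other chromosome. In the mouse nervous system miR-23 is known from astroglia and from the oligodendrocyte lineage, where miR-23a lowers lamin B1. miR-27 is known as a restraint on fat cell differentiation and as a vessel miRNA, and miR-24 as a regulator of cell cycle and apoptosis genes in cultured human cells.

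The mature sequences show how close the relatives are and which reads can be placed. RefSeq (GRCm38.p6) held a hairpin for 6 of 6 members and a 3p mature sequence for 5, all but Mir23b. The capitals mark the seed.

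miR-23a-3p: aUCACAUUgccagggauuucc

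miR-27b-3p: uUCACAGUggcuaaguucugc

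miR-27a-3p: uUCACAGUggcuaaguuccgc

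miR-24-3p, from both Mir24-1 and Mir24-2: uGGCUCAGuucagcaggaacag

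miR-24-1-5p: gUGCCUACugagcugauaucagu

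miR-24-2-5p: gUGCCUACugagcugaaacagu

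miR-27b-3p and miR-27a-3p were identical at 20 of 21 bases and differed by U19C, with positions counted from 1 at the 5′ end and the base of miR-27b-3p given before that of miR-27a-3p. Both carry the seed UCACAGU. The 3p sequence of miR-24 was the same at both places, whereas the 5p sequences of Mir24-1 and Mir24-2 differed outside a shared seed. miR-23a-3p and miR-27a-3p have a run of 5 bases in common inside their seeds, UCACA, and differ after it.

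The hairpins show where the paralogs match. They are printed with the longest stretch shared by each pair in capitals, on the plus strand of mm10.

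Mir23b, chromosome 13, 63300484 to 63300557: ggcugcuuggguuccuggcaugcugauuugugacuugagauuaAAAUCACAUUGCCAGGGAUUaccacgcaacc

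Mir23a, chromosome 8, 84208518 to 84208592: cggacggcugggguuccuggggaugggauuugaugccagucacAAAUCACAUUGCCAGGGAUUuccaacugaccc

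Mir27b, chromosome 13, 63300712 to 63300784: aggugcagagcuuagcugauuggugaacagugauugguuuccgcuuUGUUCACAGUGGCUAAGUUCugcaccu

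Mir27a, chromosome 8, 84208672 to 84208758: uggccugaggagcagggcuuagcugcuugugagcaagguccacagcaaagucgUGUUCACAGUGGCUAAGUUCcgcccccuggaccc

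Mir24-1, chromosome 13, 63301208 to 63301275: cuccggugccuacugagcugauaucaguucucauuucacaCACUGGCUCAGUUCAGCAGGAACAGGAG

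Mir24-2, chromosome 8, 84208815 to 84208921: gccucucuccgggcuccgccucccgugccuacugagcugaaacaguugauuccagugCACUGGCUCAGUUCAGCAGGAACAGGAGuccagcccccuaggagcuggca

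The shared stretch was 20 bases long for Mir23b and Mir23a, 20 for Mir27b and Mir27a, and 28 for Mir24-1 and Mir24-2. In the Mir24 pair the stretch holds all 22 bases of miR-24-3p, so a read that lies within it matches both chromosomes. In the Mir27 pair it holds 18 of the 21 bases of either 3p sequence, and in the Mir23 pair 18 of the 21 bases of miR-23a-3p. A miR-23a-3p or miR-27a-3p read that has lost 3 bases at its 3′ end therefore matches the paralog too, while the full sequences match 1 hairpin each. The 5p sequences of Mir23b, Mir23a, Mir27b and Mir27a had no such match in another hairpin of the table when shortened from the 3′ end down to 15 bases. Those of Mir24-1 and Mir24-2 lay in each other's hairpin once 7 and 6 bases were lost. The deposited tables hold reads aligned to several places apart from the gene counts, at 43.6% of reads in replicate 1 and 43.2% in replicate 2, and how many of them came from these 6 genes was not tested. The counts are per gene and do not separate the arms.

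The hairpins of a pair were also compared over their whole length by global alignment. Identical columns made up 73.8% for Mir23b and Mir23a, 61.1% for Mir27b and Mir27a, and 54.5% for Mir24-1 and Mir24-2. The columns include the shared stretch and gaps, so unequal lengths lower these values. Mir24-1 has 68 bases and Mir24-2 has 107. The percentages therefore do not rank the pairs by divergence. The chromosome 13 hairpins held less G and C in each pair, with 48.6% in Mir23b against 56.0% in Mir23a, 47.9% in Mir27b against 59.8% in Mir27a, and 51.5% in Mir24-1 against 61.7% in Mir24-2. Their predicted folding energies were -28.8, -39.5 and -26.3 kcal per mol for Mir23b, Mir27b and Mir24-1, and -32.6, -36.6 and -49.0 kcal per mol for Mir23a, Mir27a and Mir24-2. Per base the Mir27b hairpin was the most stable of the 6, at -0.541 kcal per mol, against -0.421 for Mir27a, and the other 4 lay between -0.387 and -0.458.

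The clusters differ in their surroundings. The chromosome 13 cluster spans 792 bases, with 154 bases between Mir23b and Mir27b and 423 between Mir27b and Mir24-1, and lies within the aminopeptidase gene Aopep, named 2010111I01Rik in GENCODE M21. Mir23b is intronic there, Mir27b lies in an exon of the transcript 2010111I01Rik-209, and Mir24-1 lies in an exon of 2010111I01Rik-205, both transcripts annotated as targets of nonsense-mediated decay. The Fanconi anaemia gene Fancc covers the same bases on the other strand. The chromosome 8 cluster is more compact, at 404 bases with gaps of 79 and 56 bases, and no annotated host gene contains it. The noncoding gene Gm26532 begins at its 3′ end and overlaps Mir24-2 by 2 bases. Each Mir24 gene has a miRNA gene on the other strand, Mir3074-1 opposite Mir24-1 and Mir3074-2 opposite Mir24-2.

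**Figure D1:**
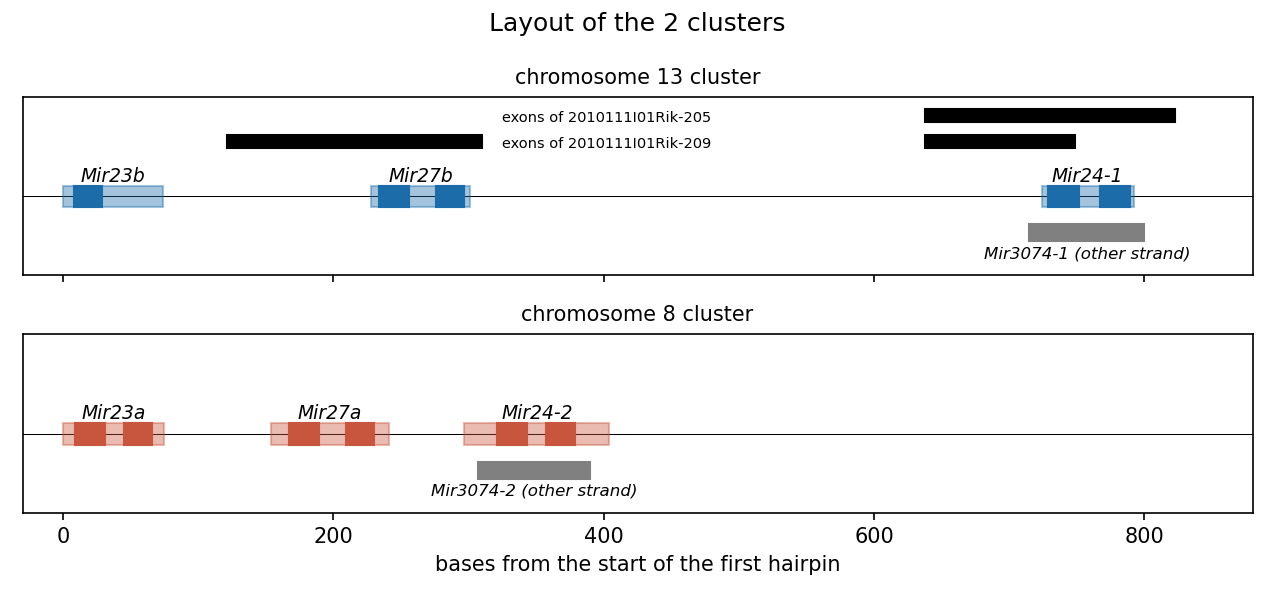
Layout of the chromosome 13 cluster (top) and the chromosome 8 cluster (bottom) to 1 scale, with distance in bases from the start of the first hairpin. Pale boxes are hairpins, dark boxes the mature sequences in the RefSeq table, grey boxes the miRNA genes of the other strand and black boxes exons of 2010111I01Rik transcripts. The chromosome 13 cluster spans 792 bases and the chromosome 8 cluster 404.

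Replicate 1 held 5183641 gene-assigned counts and replicate 2 held 5871233, so that a count of 0 allows up to 0.579 and 0.511 CPM, counts per 1000000 gene-assigned counts. Of the 2202 genes, 445 were detected, meaning at least 10 counts in both libraries, and 6 of 6 members were among them. As a check of the tissue, 8 of 11 neuron marker genes were detected, led by Mir132 at 17116 ± 3460 CPM (SD, n = 2), and the list summed to 32606 CPM in replicate 1 and 34437 CPM in replicate 2. The defining brain genes Mir124a-1, Mir124a-2 and Mir124a-3, which make 1 mature sequence, were at or near 0. They had 16, 0 and 2 counts in replicate 1 and 12, 1 and 9 in replicate 2. Mir9-1, Mir9-2 and Mir9-3 of the same list were also low, with means of 12.6, 1.32 and 86.0 CPM. The sum of the neuron list thus rests on the Mir132, Mir128 and Mir138 genes. Reads aligned to several places are outside these counts. For genes that share a mature sequence, the levels therefore do not cover that product, and a low value does not show that the miRNA was absent. All list sums carry this limit. The astroglia list (5 of 5 detected) summed to 4804 CPM in replicate 1 and 6132 CPM in replicate 2, the oligodendrocyte list (2 of 3) to 5250 and 6676, the vessel list (3 of 4, Mir126b at 0) to 9313 and 8794, the microglia and leukocyte list (4 of 4) to 1707 and 1667, and red blood cell genes (3 of 3) to 41.9 and 56.9 CPM. Their part in the levels below was not tested.

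Both clusters were read in the hippocampus at 25 days, and in both the level of counted reads stepped down along the genome from Mir23 through Mir27 to Mir24. The Mir24 values leave out reads that match both Mir24 genes, as miR-24-3p does. The Mir23 and Mir27 values leave out 3p reads short enough to match both paralogs. How far either step reflects the RNA was therefore not tested. The chromosome 13 cluster gave more counts than its chromosome 8 paralog. Together the 6 genes took 3.01% of gene-assigned counts in replicate 1 and 2.16% in replicate 2, or 2.58% ± 0.604 (SD, n = 2). The chromosome 13 cluster took 2.33% (exact 95% interval 2.32 to 2.35) and 1.79% (1.78 to 1.80), and the chromosome 8 cluster 0.676% (0.669 to 0.683) and 0.362% (0.357 to 0.367). Chromosome 13 counts were 3.45-fold those of chromosome 8 in replicate 1 (3.41 to 3.49) and 4.96-fold in replicate 2 (4.88 to 5.03). The intervals here and below cover counting error alone, since no molecular identifiers are mentioned in the labels.

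Mir23b (ENSMUSG00000065599.2) was the highest member, with 22183 CPM in replicate 1 and 16032 CPM in replicate 2. By mean level it was gene 11 of the table, at rank 10 in replicate 1 and 14 in replicate 2. Its paralog Mir23a (ENSMUSG00000065611.1) had 6700 and 3485 CPM, at ranks 28 and 47. The 2 genes did not overlap in any pairing of libraries. Mir23b was 3.31-fold higher than Mir23a in replicate 1 (3.27 to 3.35) and 4.60-fold higher in replicate 2 (4.53 to 4.67). Summed over both chromosomes, Mir23 genes had 24200 ± 6623 CPM (SD, n = 2), of which chromosome 13 gave 76.8% in replicate 1 and 82.1% in replicate 2. The sum and its split leave out reads that match both genes, such as miR-23a-3p without its last 3 bases.

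Mir27b (ENSMUSG00000065475.2) had 1118 CPM in replicate 1 and 1845 CPM in replicate 2. Mir27a (ENSMUSG00000065444.1) had 46.1 and 108 CPM. This pair was the most unequal of the 3, in both libraries. The Mir27b count was 24.3 times that of Mir27a in replicate 1 (21.3 to 27.7) and 17.1 times in replicate 2 (15.8 to 18.5). Chromosome 13 thus gave 96.0% and 94.5% of the pair's counts. A read of either 3p sequence that has lost 3 bases at its 3′ end matches both genes, and these counts leave such reads out. Both miR-27 sequences share an 8-base run, UCACAGUG, with the neuronal miR-128-3p, at bases 2 to 9 of miR-27 and bases 1 to 8 of miR-128.

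miR-128-3p: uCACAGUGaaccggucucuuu

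Its seed is thus shifted by 1 base against that of miR-27. Mir128-1 had 6294 ± 123 CPM and Mir128-2 had 1548 ± 70.4 CPM, and Mir27b had 1481 ± 514 CPM (SD, n = 2). Both Mir128 genes make this same mature sequence, so their levels leave out reads that match both and were not compared with Mir27b. Among the 1738 mature entries of the RefSeq table, the seed of miR-27a-3p was found in miR-27b-3p alone besides itself, and that of miR-23a-3p in no other entry. RefSeq held no 3p entry for Mir23b, so this search could not find that paralog. The shared stretch of the Mir23b hairpin printed above holds the same bases, UCACAUU. The seed of miR-24-3p was shared by miR-5124b, miR-6369, miR-6410 and miR-6413, whose 4 genes had a count of 0 in both libraries.

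Mir24-1 (ENSMUSG00000105904.1) had 41.9 CPM in replicate 1 and 60.8 CPM in replicate 2, from 217 and 357 counts. Mir24-2 (ENSMUSG00000065541.1) had 14.3 and 26.2 CPM, from 74 and 154 counts. Mir24-1 exceeded Mir24-2 2.93-fold in replicate 1 (2.24 to 3.87) and 2.32-fold in replicate 2 (1.91 to 2.82). The pair summed to 71.6 ± 21.8 CPM (SD, n = 2). These levels leave out reads aligned to several places, and a read inside the 28-base stretch printed above, miR-24-3p included, matches both genes. In the count column that ignores strand both genes stood at 0, and both overlap a gene of the other strand.

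Chromosome 13 was thus the higher side in all 3 pairs and in both libraries. The mean log2 ratio of chromosome 13 over chromosome 8 was 1.96 ± 0.34 for Mir23, 4.33 ± 0.35 for Mir27 and 1.34 ± 0.22 for Mir24 (SD, n = 2, pseudocount of 1 CPM). Each mean was at least 5 SDs from 0, but an SD of 2 libraries with a shared donor entry is a rough measure and not a test. With 2 libraries an exact sign-flip permutation test cannot give a p below 0.5, so none is given. The share of the pair on chromosome 13 differed between the libraries for Mir23 and Mir27 and not detectably for Mir24. Mir24 had the fewest counts of the 3 pairs, so its result does not set it apart from Mir27. The Mir23b to Mir23a ratio was lower in replicate 1, at 0.720 times that of replicate 2 (Fisher's exact test of the counts, 2-sided, adjusted over 3 pairs, p = 1.44e-247). The Mir27b to Mir27a ratio was 1.42 times higher in replicate 1 (exact, adjusted p = 7.17e-06), and the Mir24-1 to Mir24-2 ratio 1.26 times (exact, adjusted p = 0.167). These tests compare 2 libraries and take reads as independent molecules.

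**Figure D2:**
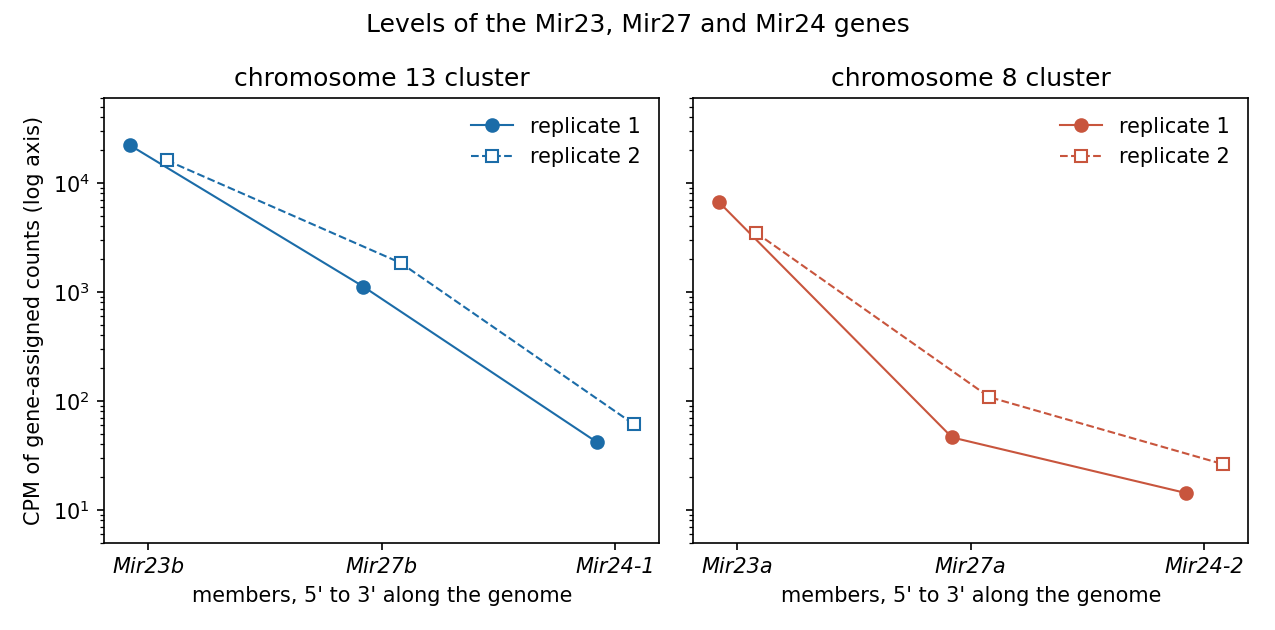
Levels of the 6 members in CPM of gene-assigned counts on a log axis, with the chromosome 13 cluster left and the chromosome 8 cluster right. Filled circles are replicate 1 and open squares replicate 2, joined by lines along the genome; in both clusters the levels step down from Mir23 to Mir24, and replicate 1 is the higher library for Mir23 but the lower one for Mir27 and Mir24.

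In order of mean level the members ran Mir23b, Mir23a, Mir27b, Mir27a, Mir24-1 and Mir24-2, with the same order in both libraries. From Mir24-2 (20.3 ± 8.45 CPM) to Mir23b (19108 ± 4350 CPM; SD, n = 2) the means differed 943-fold, and their median was 779 CPM, against 51.2 CPM over the 445 detected genes. Mir27a and Mir24-1 were neighbours that did not differ beyond their spread, with a gap of 25.7 ± 30.4 CPM, and the other 4 pairs of neighbours did not overlap. Mir24-1 stood above 50.1% of detected genes, Mir27a above 54.2% and Mir24-2 above 36.4%. The genes nearest to each member over the 2 libraries, by Euclidean distance in log2(CPM + 1), share its level and its direction between libraries in just 2 points. They were Mir487b and Mir770 for Mir23b (distances 0.25 and 0.35), Mir100 and Mir26b for Mir23a (0.30 and 0.37), Mir1983 and Mir181c for Mir27b (0.07 and 0.17), Mir6540 and Mir345 for Mir27a (0.25 and 0.46), Mir130b and Mir7047 for Mir24-1 (0.17 and 0.21), and Mir184 and Mir183 for Mir24-2 (0.11 and 0.16).

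Within each cluster, levels differed more than in the other miRNA clusters whose genes were all counted well enough to compare. Mir23b made up 95.0% of the chromosome 13 cluster's counts in replicate 1 and 89.4% in replicate 2, Mir27b 4.79% and 10.3%, and Mir24-1 0.179% and 0.339%. Mir23a made up 99.1% and 96.3% of the chromosome 8 cluster, Mir27a 0.682% and 2.98%, and Mir24-2 0.211% and 0.725%. Joining miRNA genes of 1 strand that lie within 1000 bases of each other gave 81 genomic clusters. In 38 of them every gene averaged 10 or more counts. Among these 38 the highest gene exceeded the lowest by a median of 6.97-fold. The chromosome 13 cluster had the widest spread, 372-fold, and the chromosome 8 cluster the next, 251-fold. In both the lowest gene was the Mir24 gene, whose counts leave out reads that match both Mir24 genes, miR-24-3p included. The cluster of Mir541, Mir409, Mir412, Mir369 and Mir410 followed at 95.9-fold, and the 8 clusters of 3 genes had a median log2 spread of 3.99, against 8.54 and 7.97 for these 2. Mir23 was the 5′-most gene as well as the highest in both, as was the highest gene in 20 of the 38 clusters.

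That order depends on which genes are counted. Clusters with a gene under the minimum were left out. When all 81 were kept, with means below the level of 3 counts per library set to that level, at least 11 were wider than the chromosome 13 cluster and at least 12, that cluster among them, wider than the chromosome 8 cluster. Without genes whose mature sequence another gene also makes, which removes Mir24-1 and Mir24-2, the spread of Mir23a over Mir27a was 6.05 on the log2 scale, at place 2 of 26 clusters, and that of Mir23b over Mir27b was 3.69, at place 12.

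**Figure D3:**
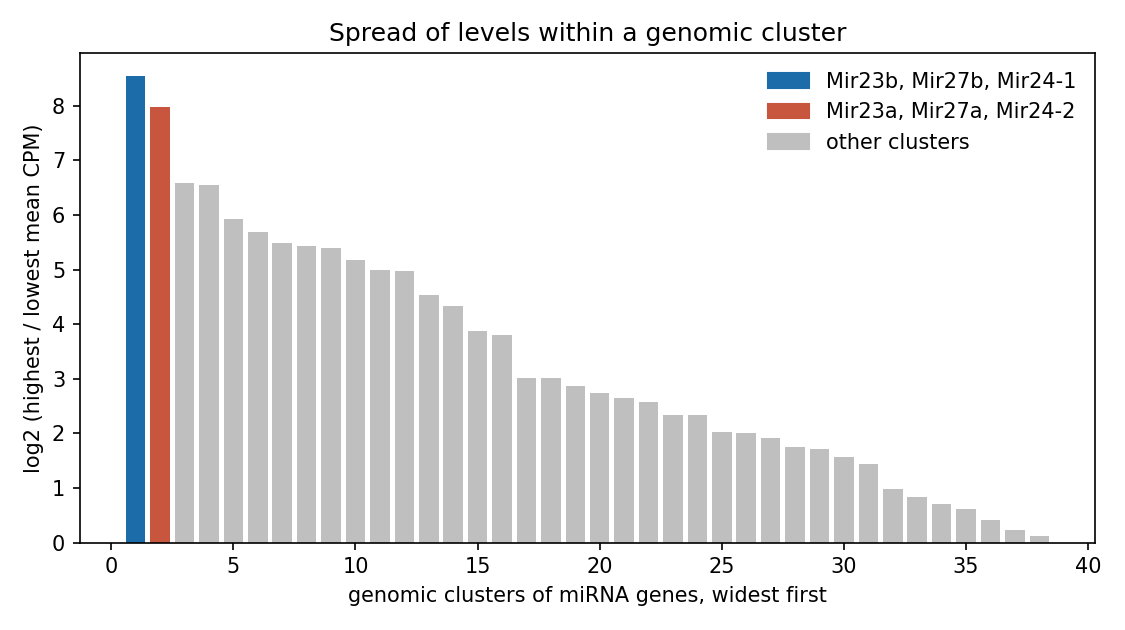
Log2 ratio of the highest over the lowest mean CPM in each of 38 genomic clusters of miRNA genes, sorted from the widest. The chromosome 13 cluster (8.54) and the chromosome 8 cluster (7.97) stand at the left end, and no other cluster passes 6.58.

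The libraries differed in opposite directions along each cluster. Mir23b and Mir23a were higher in replicate 1, and Mir27b, Mir27a, Mir24-1 and Mir24-2 were higher in replicate 2. By an exact binomial test of the counts with Benjamini-Hochberg adjustment over the 472 genes that averaged 10 or more counts, 6 of 6 members differed, 2 higher in replicate 1 and 4 higher in replicate 2. Among all genes tested 59.7% were called, 20.3% higher in replicate 1 and 39.4% higher in replicate 2, and of the 291 genes that averaged 100 or more counts, to which 6 of 6 members belong, 82.8% were called. A call is therefore common at these depths, and it does not show a difference beyond the spread between samples, for which the common biological coefficient of variation was 0.320.

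Mir23a had the larger difference of the Mir23 genes, 1.92-fold higher in replicate 1 (exact interval 1.89 to 1.96), while Mir23b was 1.38-fold higher (1.37 to 1.40). Of the 291 genes, 8 had a higher log2 ratio of replicate 1 over replicate 2 than Mir23a and 31 a higher one than Mir23b. On the other side, Mir27a had a log2 ratio of -1.21, with 16 genes lower, and Mir27b one of -0.72, with 45 lower (exact binomial test, adjusted p = 1.92e-31 and 4.00e-215). Mir24-2 had a log2 ratio of -0.83 (exact, adjusted p = 2.59e-05) and Mir24-1 one of -0.53 (exact, adjusted p = 3.08e-05). The median log2 ratio was -0.62 over the 6 members and -0.17 over the 291 genes, and TMM scaling (trimmed mean of M-values) moves every log2 ratio by 0.17. Under TMM the calls split into 137 higher in replicate 1 and 141 higher in replicate 2, and the directions of the 6 members were as given.

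The shift within a cluster does not depend on the scaling between libraries. Mir23b was 19.8 times Mir27b in replicate 1 (19.3 to 20.4) and 8.69 times in replicate 2 (8.52 to 8.87), a change of 2.28-fold (2.21 to 2.36). Mir23a was 145 times Mir27a in replicate 1 (128 to 166) and 32.3 times in replicate 2 (29.8 to 35.0), a change of 4.50-fold (3.88 to 5.23). Both clusters thus gave more Mir23 per Mir27 in replicate 1. The ratios of Mir27 to Mir24 moved less. Mir27b over Mir24-1 in replicate 1 was 0.881 times that in replicate 2 (0.742 to 1.05), and Mir27a over Mir24-2 was 0.785 times (0.573 to 1.07), with 1 inside both intervals.

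Members of the chromosome 8 cluster lay 2.15 apart in their log2 ratio of replicate 1 over replicate 2, and those of the chromosome 13 cluster 1.19 apart. The median over the 38 genomic clusters was 0.60, and 1.43 over the 8 clusters of 3 genes, so the chromosome 13 value is below the median of clusters of its size. The chromosome 8 cluster stood at place 2 of 38, after the cluster of Mir99b, Mirlet7e and Mir125a at 2.50, and the chromosome 13 cluster at place 12. Of the marker lists summed above, the astroglia, oligodendrocyte and red blood cell lists were lower in replicate 1. The sums of the neuron, vessel and microglia lists were closer between the libraries, but their genes went opposite ways. The log2 ratio was 1.74 for Mir145a and -0.14 for Mir126a of the vessel list. It was 1.04 for Mir142 and -0.52 for Mir146 of the microglia list, and 0.42 for Mir138-1 and -0.42 for Mir132 of the neuron list. Within the astroglia list Mir21a had 3723 counts in replicate 1 and 8430 in replicate 2, while Mir29a, the most abundant of the list, had a log2 ratio of replicate 1 over replicate 2 of -0.17, the median over the 291 genes. Their part in the shift was not tested.

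**Figure D4:**
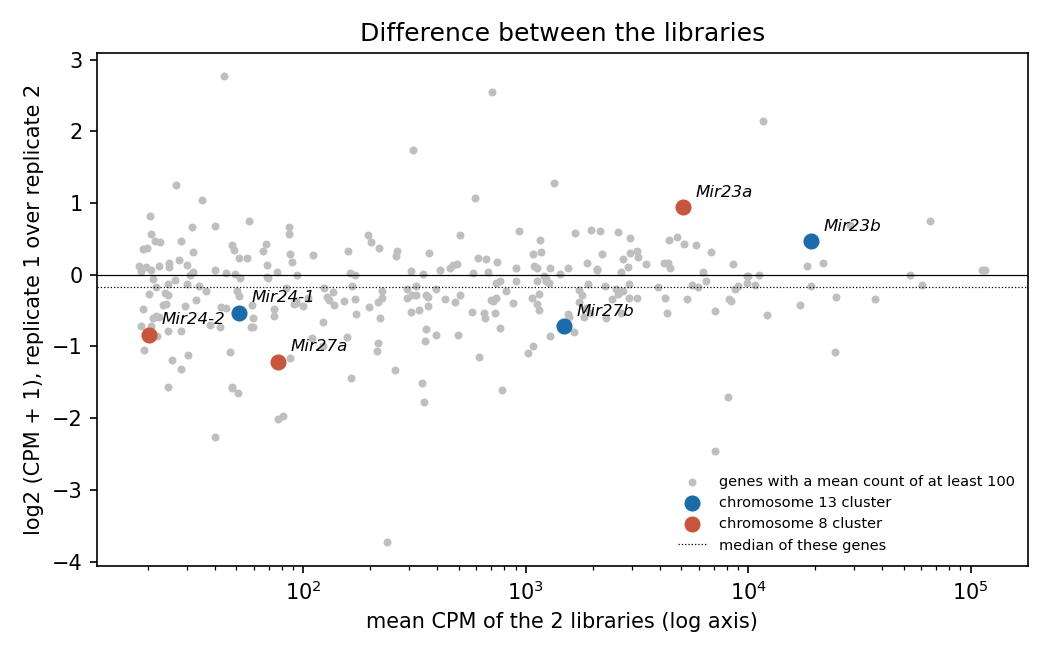
Log2 ratio of CPM + 1, replicate 1 over replicate 2, against mean CPM on a log axis for the 291 genes averaging 100 or more counts (grey), with the chromosome 13 members in blue and the chromosome 8 members in red. Mir23b and Mir23a lie above 0 at 0.47 and 0.94, and the other 4 members lie below the dotted median of -0.17.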

How the data were processed

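Each of the 2 libraries came with a table of raw read counts per miRNA gene deposited by the authors. An accompanying deposited text gives the build as mm10 and the annotation as M21. No aligner or counter is named in the sources used here. The tables have 3 count columns, and the 1 on the strand of the gene was used. The 4 rows that name no gene were kept out of library sizes and were 62.7% and 63.3% of reads in replicates 1 and 2. All 2202 identifiers matched GENCODE M21. Sequences came from RefSeq GRCm38.p6, whose coordinates for the 6 hairpins equalled those of GENCODE.

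Counts were scaled to CPM, with a pseudocount of 1 on log2 scales. With 1 group no quasi-likelihood contrast exists, so edgeR 4.0.16 (R 4.3.3) gave the dispersion and TMM factors, and DESeq2 1.42.0 size factors as an alternative. Genes were tested between libraries with a 2-sided exact binomial test and Benjamini-Hochberg adjustment over 472 genes. This step was tested on data simulated with counting error alone, without further spread between libraries. Intervals are exact Clopper-Pearson at 95% (scipy 1.17.1), except changes of a ratio, which use the normal approximation on the log scale. Folding energies came from ViennaRNA 2.7.2 and alignments from Biopython 1.88.

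The text names the 6 members, miRNA genes opposite them, the 2 genes nearest to each, genes sharing a seed and the miR-128 genes. Other genes named were chosen after their values were seen. Members and lists were chosen with earlier results of these data known. Alternatives covered the count column, scaling, pseudocount, count minimum, cluster distance, stretch length and each library alone.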

Additional observations from a re-analysis of the deposited data

Results flagged for a closer look

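Reads opposite to Mir24-1 were counted on Mir3074-1, a miRNA gene of the other strand that the comparisons do not use. They numbered 56 in replicate 1 (10.8 CPM, exact 95% interval 8.16 to 14.0) and 14 in replicate 2 (2.38 CPM, 1.30 to 4.00), above the 3 counts that a count of 0 allows. Mir3074-1 was thus 4.53-fold higher in replicate 1 (2.49 to 8.81), while Mir24-1 on the other strand was higher in replicate 2. Mir3074-2, opposite Mir24-2, had 0 counts in both libraries. The mature sequence miR-3074-5p of Mir3074-1 lies opposite the 28-base stretch shared by the Mir24 genes, and 1 other gene also makes it. The counts of both Mir3074 genes leave out reads aligned to several places, so their levels and the difference between libraries do not cover that product.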

How the results depend on the processing

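The 40 alternative values of the members' log2 ratios between libraries kept their direction and their side of the threshold, and no alternative reversed a result. A count minimum or a pseudocount could not change the direction of a ratio, and a pseudocount does not enter the test. For direction, the scalings and the count column were the settings that could have changed it. With reads aligned to several places added to the total, the shares fell to 0.950% for chromosome 13 and 0.239% for chromosome 8. With a pseudocount of 10 CPM the log2 ratio of Mir24-1 over Mir24-2 was 1.03. In the column that ignores strand 2 members were higher in replicate 2, since Mir24-1 and Mir24-2 stood at 0 there and gave no ratio. With a stretch of 22 bases 2 members shared it with a gene elsewhere, against 6 at 20 bases. Values without replicate 1 and without replicate 2 ran from 1.79% to 2.33% and from 0.362% to 0.676% for the chromosome 13 and chromosome 8 shares, and from 1.73 to 2.20, 4.08 to 4.57 and 1.18 to 1.49 for the log2 ratios of Mir23, Mir27 and Mir24 paralogs. The places of the clusters by spread were as given when neighbours were joined within 10000 bases or every gene had a mean count of at least 100. The 2 settings that moved those places, and the share of calls among 291 genes, were chosen after seeing the data. Depth limits Mir24-2 most, at 74 and 154 counts. No paired analysis was possible because the 2 libraries form 1 group.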
